A study of Mus musculus with 21 samples.

Results

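A set of 6 effector genes was taken from the transcriptome of small intestinal IgA+ plasma cells (IgA+ PCs): *Tnf*, *Nos2*, *Il10*, *Ebi3*, *Il12a* and *Tgfb1*. They were chosen by name, as genes of plasma cell functions other than antibody secretion, and all 6 members were found among the 53801 genes of the deposited count table and among the 20256 genes that reached a total of at least 10 counts and were tested. Cells were sorted as CD138+ IgA+ from the lamina propria of 21 C57BL/6 mice, 1 RNA-seq library per mouse, and reads were counted per gene. All mice carried *Arntl* fl/fl alleles, *Arntl* being the gene of the clock factor Bmal1. Mice labelled Mb1Cre-/- x Arntl fl/fl are called control here (6 at zeitgeber time (ZT) 0, lights on, and 6 at ZT12), and mice that carry Cre in the *Mb1* locus, which is *Cd79a*, are called knockout (4 at ZT0 and 5 at ZT12). Cre from this locus acts in the whole B cell lineage from early in its development, so the deletion is not restricted to plasma cells. The titles of the samples served to assign genotypes because, for 8 of 9 knockout samples, the field for genotype holds that of the controls, and the labels give neither age nor sex. Control mice were littermates of the knockout mice, the sources do not tie single libraries to litters, and p-values measure the spread between these libraries.

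Plasma cells are known mainly as antibody factories, but subsets of them also release cytokines. IL-10 and TGF-beta restrain inflammation, and TGF-beta also directs class switching to IgA. Ebi3 and the p35 chain encoded by *Il12a* are subunits of secreted heterodimers: together they form IL-35, while Ebi3 with the *Il27* product forms IL-27 and p35 with the *Il12b* product forms IL-12. TNF and inducible nitric oxide synthase, the product of *Nos2*, act in defence against microbes, and intestinal IgA+ PCs that make both have been described.

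The labels were first checked against the genes they imply. *Arntl* stood at 6.83 to 8.36 CPM (counts scaled to library size with TMM factors) in control mice at ZT0 and at 4.08 to 6.47 CPM in knockout mice at ZT0, without overlap. At ZT12 it was 4.00 to 5.56 CPM in control and 3.11 to 4.93 CPM in knockout mice, which overlapped. *Cd79a*, whose locus holds the Cre insertion, was 386 to 586 CPM in every control and 163 to 276 CPM in every knockout library. *Xist*, an RNA of female cells, was 329 to 479 CPM in some libraries of every group and at most 3.51 CPM in the others. Each group thus held mice of both sexes. The cells carried the RNA of plasma cells, with *Igha*, the IgA heavy chain, as the most abundant of 11 plasma cell markers at a mean of 304000 CPM. Libraries held 14471018 to 22785835 counts, of which 51.5% to 63.6% fell on immunoglobulin genes. Of these, 4 libraries, control ZT12 replicates 2, 4 and 5 and knockout ZT0 replicate 3, lay above 58% (63.6%, 59.5%, 59.1% and 59.4%), and the other 17 lay at or below 55.7%.

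The members that carried most RNA were *Tgfb1* and *Il10*. Per kilobase of gene length, the mean level over the 21 libraries was 8.10 CPM per kb for *Il10* and 7.45 for *Tgfb1*, which placed them at the 85.4th and 84.4th percentile of the genes tested. *Il10* was above *Tgfb1* in 8 of the 21 libraries, so the order of these 2 was not separated by the spread. *Ebi3* followed with 2.14 CPM per kb and was below *Tgfb1* in 20 of 21 libraries. *Il12a* (0.446) and *Tnf* (0.302) were near each other, *Il12a* being the higher in 14 of 21 libraries. *Nos2* was lowest, with 0.0715 CPM per kb, the 18.4th percentile. The 6 genes also differed in evenness: *Tgfb1* spanned 6.04 to 8.87 CPM per kb over all libraries, and *Il10* spanned 3.44 to 23.6.

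The regulatory DNA of 3 members is shown because their levels behaved differently: *Ebi3* varied between mice while *Tgfb1* was nearly even, and *Tnf* was low throughout. Each is the run of 250 bases before a RefSeq start site on GRCm38.p6, read 5′ to 3′ in the direction of the gene. Promoter entries were matched for 4 of the 6 members, with 5 start sites between them, *Il12a* having 2. *Ebi3* is at chr17:55952373-55952622 on the plus strand, *Tgfb1* at chr7:25686752-25687001 on the plus strand and *Tnf* at chr17:35202008-35202257 on the minus strand. Capitals mark matches to the kappaB motif in *Ebi3* and *Tgfb1*, the element bound by NF-kappaB, and to TATAAA, the TATA box, in *Tnf*.
Ebi3: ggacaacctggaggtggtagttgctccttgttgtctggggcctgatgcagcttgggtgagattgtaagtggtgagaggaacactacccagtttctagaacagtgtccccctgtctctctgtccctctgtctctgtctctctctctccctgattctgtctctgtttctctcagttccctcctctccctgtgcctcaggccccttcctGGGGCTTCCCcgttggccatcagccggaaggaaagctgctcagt
Tgfb1: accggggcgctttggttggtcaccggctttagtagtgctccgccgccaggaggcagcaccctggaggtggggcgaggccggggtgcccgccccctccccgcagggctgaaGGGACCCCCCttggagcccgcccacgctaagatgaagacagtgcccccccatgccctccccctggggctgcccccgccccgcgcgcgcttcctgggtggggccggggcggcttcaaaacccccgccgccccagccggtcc
Tnf: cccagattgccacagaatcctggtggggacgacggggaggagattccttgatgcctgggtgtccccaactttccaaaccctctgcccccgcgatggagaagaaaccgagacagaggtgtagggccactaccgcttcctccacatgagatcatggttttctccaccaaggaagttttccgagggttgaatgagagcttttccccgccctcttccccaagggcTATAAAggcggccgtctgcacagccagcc
The kappaB match of *Ebi3* lies 44 to 35 bases before its start and that of *Tgfb1* 140 to 131 bases before its start. Such a match, on either strand, was found in 7.25% of the 32851 windows of the same length in the RefSeq table. The TATAAA of *Tnf* lies 29 to 24 bases before its start, and 12.4% of all windows hold these letters. Of the 5 member windows, 2 held a kappaB match and 1 held TATAAA. The nuclear receptor half-site AGGTCA was in 0 of the 5, against 14% of all windows. CACGTG, the E-box that Bmal1 with its partner CLOCK binds, was also in 0, against 6.02% of all windows. The 2 windows of *Il12a*, which are not shown, held none of these motifs. These letters are a description of the windows and do not show binding.

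Over all 5 comparisons 0 of the 6 members were called at an adjusted p under 0.05 in edgeR. In control mice between the times 1.73% of all genes tested were called and 1 member (*Il10*) had an unadjusted p under 0.05, as did 18.1% of all genes. In knockout mice between the times 0% of genes were called, and *Nos2* and *Ebi3* had an unadjusted p under 0.05 (8.01% of all genes). In the interaction 0% were called, and *Il10* and *Nos2* were under 0.05 unadjusted (10.8% of all genes). Between the genotypes 0.00987% of genes were called at ZT0 and 0.0148% at ZT12, where 2 members (*Il10* and *Ebi3*) and 0 members were under 0.05 unadjusted, against 4.9% and 8.83% of all genes. DESeq2 called 1 member in control mice (*Il10*) and 0 members in the other 4 comparisons. In control mice it called 1073 genes, 9.25% of the 11599 it kept for adjustment there. Its calls between the times in knockouts were 0.638% of 10034 kept genes, and in the interaction 0.0148% of 20207. Between the genotypes they were 0.0247% of 20207 at ZT0 and 0.041% of 17066 at ZT12. With edgeR the base was 20256 genes in every comparison, so the shares from DESeq2 and edgeR are not directly comparable. The 350 edgeR calls over all genes in control mice depended on single libraries: with each left out in turn they numbered from 31 (without control ZT0 replicate 2) to 944 (without control ZT12 replicate 1), more than 1.5 times away in 15 of 21 fits, with 0 members called in any. The median log2 fold change of the 6 members was 0.21 in control mice (3 of 6 above 0), beside 0.01 over all genes tested. It was -0.16 in knockout mice (2 of 6), -0.44 in the interaction (1 of 6), 0.29 between genotypes at ZT0 (4 of 6) and 0.04 at ZT12 (3 of 6).

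**Figure D1:**
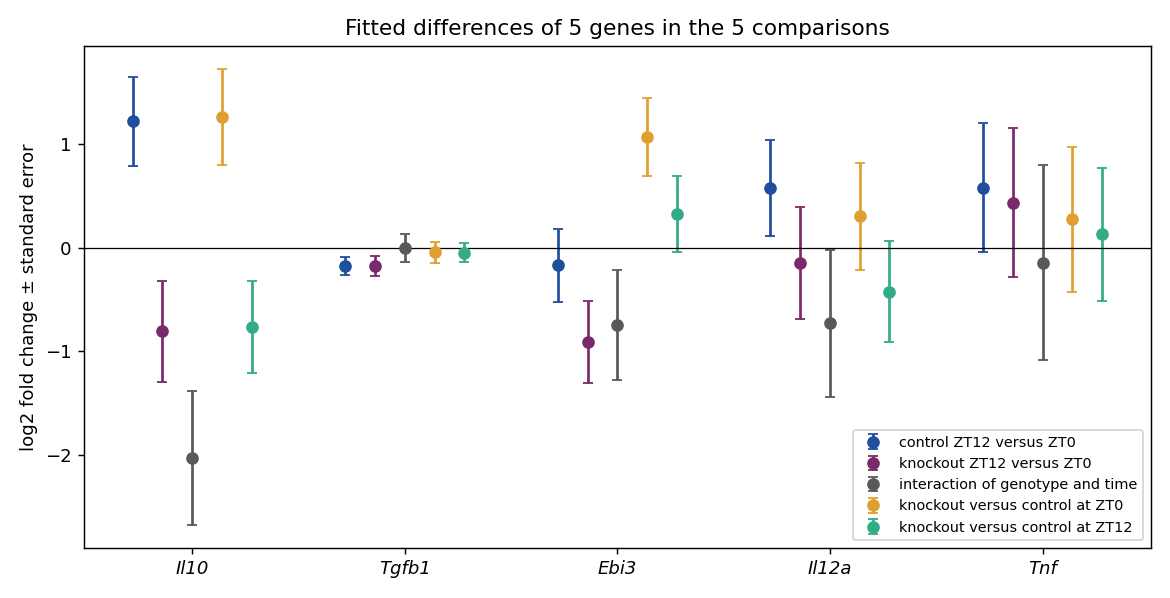
Fitted log2 fold change (y axis) for 5 of the genes in the 5 comparisons, from edgeR, with a standard error derived from its F statistic as a bar. *Nos2* is left out because it has no count in 1 group. *Il10* has opposite signs in control (1.22) and knockout mice (-0.81), and the values of *Tgfb1* lie close to 0.

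*Il10* (ENSMUSG00000016529, chromosome 1, 131019845 to 131024974, plus strand) ranged from 4.5 to 30.95 CPM over the 21 mice. In control mice at ZT0 it was low and even, from 4.59 through a median of 6.07 to 8.19 CPM in 6 mice. At ZT12 it ran from 4.5 through 14.9 to 22.7 CPM in the 6 control mice. Of the ZT12 mice, 4 lay above every ZT0 mouse, 1 lay within the ZT0 range and 1 below it, so the groups overlapped. The 4 knockout mice of ZT0 had 15.94, 4.59, 30.95 and 7.26 CPM, and the 5 of ZT12 had 6.41, 11.44, 5.99, 9.53 and 8.44 CPM. Here the ZT0 mice were split, with replicates 1 and 3 above all ZT12 mice, and each of the ZT12 mice fell inside the ZT0 range. Among these ZT0 mice *Xist* was 479 and 428 CPM in replicates 1 and 3, and 3.51 and 1.24 CPM in replicates 2 and 4. The part of sex in the *Il10* level was not tested beyond a fit with *Xist* as a covariate.

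Between ZT0 and ZT12 in control mice, mean *Il10* went from 6.11 ± 1.26 (SD, n = 6) to 14.3 ± 7.59 CPM (SD, n = 6), and the fitted log2 fold change was 1.22 with a standard error of 0.43. Over all genes this did not pass the threshold (adjusted p = 0.154, edgeR's quasi-likelihood test with Benjamini-Hochberg adjustment). Taken alone, the difference in means had p = 0.039 in a two-sided exact permutation test, the one value under 0.05 among 24 such tests (6 members in 4 comparisons, unadjusted; the smallest p the 6 against 6 mice allow is 0.00216). DESeq2 in place of edgeR called *Il10* (log2 fold change 1.25, adjusted p = 0.0392), as did edgeR with the level of myeloid markers as a covariate (1.15, adjusted p = 0.0394). Both settings also called more genes in all, 1073 and 1287, beside 350 in the main fit. With the share of immunoglobulin counts added as a covariate the value was 0.45 (adjusted p = 0.826, edgeR), and without the 4 libraries above 58% it was 0.66 (adjusted p = 0.686, edgeR), an alternative chosen after the data were seen.

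In knockout mice the change ran the other way, at -0.81 (standard error 0.49, adjusted p = 0.685, edgeR), the ZT0 mean being 14.7 ± 11.9 CPM (SD, n = 4) and the ZT12 mean 8.36 ± 2.25 CPM (SD, n = 5). The difference between the genotypes in their time of day change, the interaction, was -2.03 (standard error 0.65, unadjusted p = 0.0059, adjusted p = 0.442, edgeR). At ZT0 knockout mice were above control mice by 1.26 (standard error 0.47, adjusted p = 0.926, edgeR), and at ZT12 the difference was -0.77 (standard error 0.45, adjusted p = 0.612, edgeR). Without knockout ZT0 replicate 3, the highest mouse at 30.95 CPM, the interaction was -1.37, the difference at ZT0 0.60 and the change in knockout mice -0.15. With the immunoglobulin covariate the interaction was -1.01 and the genotype differences were 0.74 at ZT0 and -0.26 at ZT12, and without the 4 libraries above 58% they were -0.81, 0.61 and -0.21. With *Xist* as a covariate the interaction and these differences were -1.90, 1.17 and -0.73.

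**Figure D2:**
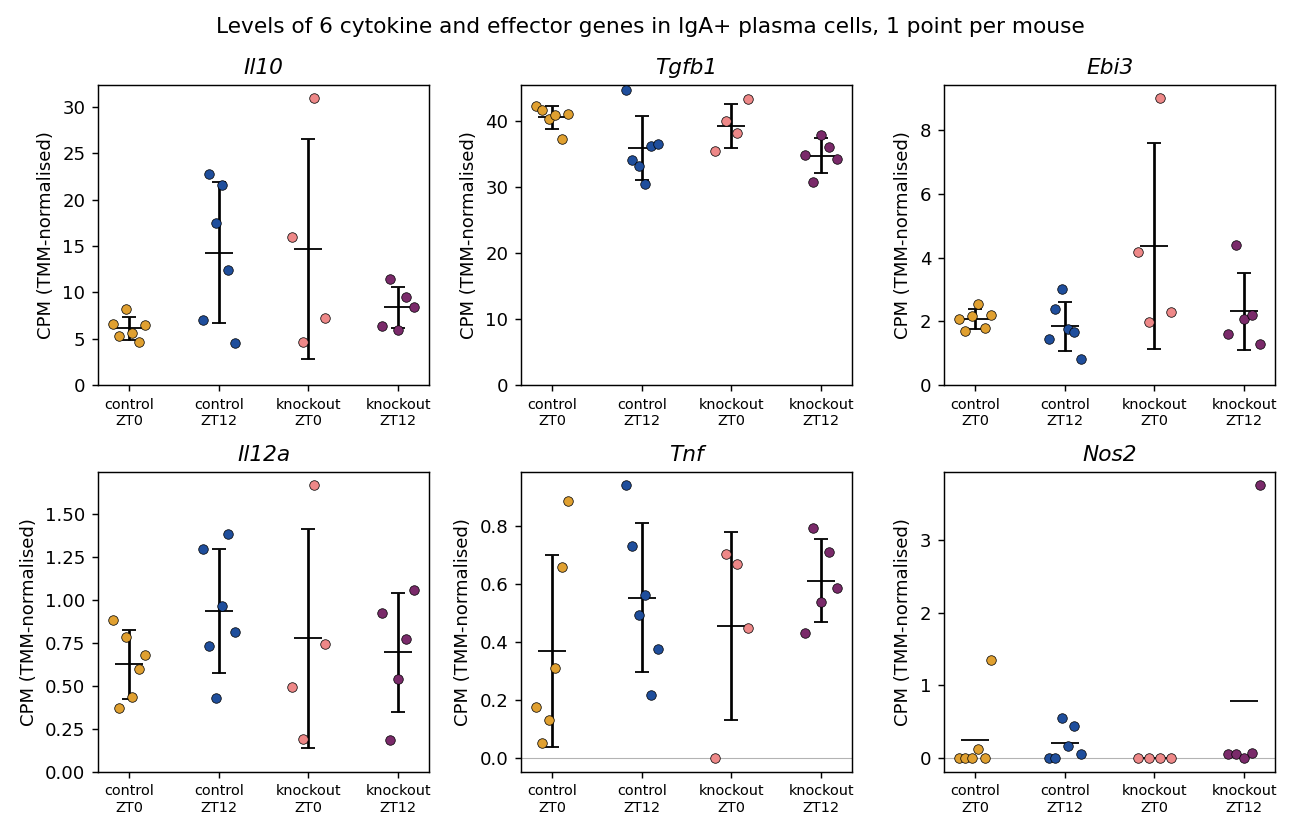
Level of each gene in TMM-normalised CPM (y axis, linear) in the 4 groups, with 1 point per mouse, the mean as a horizontal line and the SD as a bar (no bar for *Nos2*). *Il10* was low and even in the 6 control mice at ZT0 and spread from 4.5 to 22.7 CPM at ZT12, while *Tgfb1* stayed between 30.4 and 44.7 CPM in all 21 mice.

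*Ebi3* (ENSMUSG00000003206, chromosome 17, 55952623 to 55957021, plus strand) was highest in the same mouse as *Il10*, knockout ZT0 replicate 3, and did not have the high values of *Il10* in control mice at ZT12. In control mice it was 1.69 to 2.53 CPM at ZT0 (median 2.11) and 0.81 to 3.01 CPM at ZT12 (median 1.72). The fitted change on the log2 scale was -0.17 (standard error 0.35, adjusted p = 0.847, edgeR), and the ZT12 mice lay on both sides of the ZT0 range. Knockout mice had 4.18, 1.98, 9 and 2.29 CPM when sampled at ZT0 and 1.60, 4.38, 2.08, 2.19 and 1.29 CPM when sampled at ZT12. The high knockout mice at ZT0 were again replicates 1 and 3, those with high *Xist*. At ZT12 the order was another: knockout replicates 1 and 5, with *Xist* at 331 and 344 CPM, had 1.60 and 1.29 CPM. Replicate 2, with *Xist* at 0.73 CPM, had the highest *Ebi3* of that group, 4.38 CPM. Between the times knockout mice changed by -0.91 (standard error 0.40, adjusted p = 0.613, edgeR), and at ZT0 knockout mice differed from control mice by 1.07 (standard error 0.38, unadjusted p = 0.00885, adjusted p = 0.926, edgeR). Without knockout ZT0 replicate 3 these were -0.29 and 0.44. The exact permutation tests of the same 2 differences gave p = 0.254 and p = 0.105, where the smallest possible values are 0.0159 and 0.00952.

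Over the 21 libraries the log2 levels of *Il10* and *Ebi3* had a Pearson correlation of 0.63 (0.47 without the 2 libraries farthest from the median of *Il10*) and a Spearman correlation of 0.49. Taken as deviations from the 4 group means, the Pearson correlation was 0.83 (0.48 and 0.85 within the control groups at ZT0 and ZT12, 0.98 and 0.62 within the knockout groups). These are descriptions over libraries that differ in depth and share 1 normalization, and no test was made. *Il10* and *Tgfb1* had a correlation of -0.54. The genes most like *Il10* among 11634 genes with a mean of at least 1 CPM were *Ada*, adenosine deaminase (0.93), *Neb*, nebulin (0.92), and *Ackr3*, a scavenging chemokine receptor (0.91). Those most like *Ebi3* were *Nebl* (0.84), *Sspo* (0.81) and *Zfp467* (0.81), and those most like *Tgfb1* were *Cd200* (0.85), *Cacna1c* (0.85) and *Hdac7* (0.85).

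The partner chains that IL-12 family cytokines need were scarce. *Il12b* had 27 counts in all, with 0 in 13 of the 21 libraries, and *Il23a*, the partner of the *Il12b* product in IL-23, had 87. *Il27*, the partner of Ebi3 in IL-27, had 199 counts and 0.00 to 1.43 CPM per library. It was low where *Ebi3* was high: knockout ZT0 replicate 3, with the most *Ebi3*, had 1 count of *Il27*, and the correlation over 21 libraries was -0.61. In control mice *Il23a* had a mean of 0.0984 ± 0.133 (SD, n = 6) at ZT0, and at ZT12 one of 0.36 ± 0.235 CPM (SD, n = 6) (log2 fold change 1.82, standard error 0.76, adjusted p = 0.202, edgeR). None of the 3 partner chains was called in any of the 5 comparisons.

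*Il12a* (ENSMUSG00000027776, chromosome 3, 68690644 to 68698547, plus strand) had 3 to 29 counts per library. Its level was 0.37 to 0.88 CPM (median 0.64) in control mice at ZT0 and 0.43 to 1.38 CPM (median 0.89) at ZT12. Of the 6 ZT12 mice, 3 were above all ZT0 mice, and the change of 0.58 (standard error 0.46, adjusted p = 0.531, edgeR) was within the spread. The values in knockout mice were 0.49, 0.19, 1.67 and 0.75 CPM for ZT0 and 0.92, 0.18, 0.54, 0.77 and 1.05 CPM for ZT12, a change of -0.15 (standard error 0.54, adjusted p = 0.968, edgeR). Without knockout ZT0 replicate 3, the highest mouse, that change was 0.52.

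*Tgfb1* (ENSMUSG00000002603, chromosome 7, 25687002 to 25705077, plus strand) was the most even member and rested on 380 to 1001 counts per library. In control mice it was 37.2 to 42.3 CPM (median 40.9) at ZT0 and 30.4 to 44.7 CPM (median 35.2) at ZT12. Control ZT12 replicate 1 was the highest of all mice, and the other 5 ZT12 mice lay below every ZT0 mouse. Among knockout mice those of ZT0 had 35.44, 40.05, 38.22 and 43.34 CPM and those of ZT12 34.77, 30.73, 37.93, 36.12 and 34.27 CPM, all ZT12 mice being below the ZT0 median. The change was -0.18 in control mice (standard error 0.09, adjusted p = 0.287, edgeR; exact permutation p = 0.0519) and -0.18 in knockout mice (standard error 0.10, adjusted p = 0.66, edgeR; exact permutation p = 0.0635). In control mice it was -0.37 with library size only and -0.08 without the 4 libraries above 58% immunoglobulin. The interaction was -0.0008 (standard error 0.13), and knockout and control mice differed by -0.05 at each time (standard errors 0.10 and 0.09). A p above the threshold does not show that the groups are alike. Over the 21 libraries *Tgfb1* had a correlation of 0.76 (0.69 from group means) with the summed level of stromal and endothelial markers, which was 43.4 CPM in control mice at ZT0 and 30.7 CPM at ZT12. Of this sum *Pecam1* alone made up 39.4 and 27.6 CPM, and in knockout mice 6 of the 9 tested markers were above 0 between the times while the sum went from 39.1 to 35.6 CPM. The correlation of *Tgfb1* with the sum of other B cell markers, nearly all *Cd74* and *Ighm*, was -0.64. Their part in the *Tgfb1* level was not tested.

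*Tnf* (ENSMUSG00000024401, chromosome 17, 35199381 to 35202007, minus strand) was detected in 20 of 21 libraries with at most 21 counts. It was 0.05 to 0.89 CPM (median 0.24) in control mice at ZT0 and 0.22 to 0.94 CPM (median 0.53) at ZT12. In the knockout groups the levels were 0.00, 0.70, 0.67 and 0.45 CPM (ZT0) and 0.43, 0.79, 0.54, 0.71 and 0.59 CPM (ZT12). All groups overlapped. The changes were 0.58 in control mice (standard error 0.62, adjusted p = 0.664, edgeR) and 0.44 in knockout mice (standard error 0.72, adjusted p = 0.912, edgeR). Single libraries moved both: the change in control mice was 1.06 without control ZT0 replicate 6 and 0.35 without control ZT0 replicate 2, and in knockout mice it was 0.0133 without knockout ZT0 replicate 1 and 0.71 without knockout ZT0 replicate 2. The library with 0 counts, knockout ZT0 replicate 1, had an upper 95% limit of 0.203 CPM. This limit covers counting error only.

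*Nos2* (ENSMUSG00000020826, chromosome 11, 78920787 to 78960254, plus strand) was a gene of single libraries. It had 113 counts in all, of which 64 were in knockout ZT12 replicate 5 and 26 in control ZT0 replicate 6. The counts were 0, 0, 0, 2, 0 and 26 in control mice at ZT0, 0, 0, 9, 2, 6 and 1 in control mice at ZT12, 0 in all 4 knockout mice at ZT0, and 1, 1, 0, 1 and 64 in knockout mice at ZT12. Against a floor of 3 counts over the knockout ZT0 group (0.0435 CPM), the knockout ZT12 mean of 0.787 CPM was at least 18.1-fold higher. Without replicate 5 it was 0.0467 CPM, at that floor. In control mice the change between the times was -0.35 (standard error 1.48, adjusted p = 0.935, edgeR) and turned to 2.70 without control ZT0 replicate 6.

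The 4 libraries with the most *Nos2* were the 4 with the highest summed level of 22 epithelial markers, at 812.5, 350, 279 and 1089 CPM in falling order of *Nos2* counts, against a median of 96.8 CPM over all libraries. They held 105 of the 113 counts (92.9%), and the other 17 libraries held 8, with at most 2 in any of them. The most abundant epithelial marker by its mean over all libraries was *Epcam*, at 67.2 CPM, while *Lgr5* and *Muc2*, markers of stem and goblet cells, had fewer than 10 counts. In the 4 libraries *Epcam* was 91.9, 65.0, 73.0 and 130 CPM, in the same order. Most of each of their sums thus came from other markers of the list. The study stripped the epithelium from the tissue before digestion, and its gate for these cells was CD45+ CD3- CD5- NK1.1- B220- IgD-. The covariate fits used the mean log2 CPM of the epithelial list, not its sum. With this epithelial marker level as a covariate the change of *Nos2* in control mice was -1.87 (standard error 1.10, adjusted p = 0.423, edgeR), farther from 0 than without it. In knockout mice the fitted change went from 6.74 to 3.16 (standard error 1.75, adjusted p = 0.712, edgeR), and the interaction from 7.08 to 5.03. Knockout mice at ZT0 had 0 counts, so these fitted values are not measured folds. The part of epithelial RNA in the *Nos2* counts was not tested further, and in bulk RNA more cells of a type and more RNA per cell cannot be told apart.

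*Il10* also moved with other measures of the libraries. Of the 6 libraries with the most *Il10*, 5 were among the 6 with the highest summed level of 12 markers of other B cells, a sum that is nearly all *Cd74*, the invariant chain (mean 1420 CPM), and *Ighm* (268 CPM). The 12 markers went both ways in control mice between the times (6 above 0, median -0.03), and *Ms4a1* and *Pax5*, which define B cells, had means of 1.45 and 0.543 CPM. The correlation of *Il10* with the sum was 0.84 over 21 libraries (0.79 from group means) and with the immunoglobulin share 0.70. It was 0.82 with the mast cell and eosinophil list, whose level is almost wholly *Prg2*, while *Cpa3*, *Epx* and *Fcer1a* had at most 1 count each. With the summed level of 18 myeloid markers, led by *Csf1r* at 15.6 CPM, the correlation was -0.65 (-0.35 without the 2 libraries farthest from the median of the sum), and *S100a8* and *S100a9* had 3 and 1 counts in all. With the summed stromal and endothelial markers, mostly *Pecam1*, it was -0.66. *Ebi3* had a correlation of 0.60 (0.82 from group means) with the sum led by *Cd74* and of 0.19 (0.41 from group means) with the immunoglobulin share. With the myeloid marker level (the mean log2 CPM of the list) as a covariate the change of *Il10* in control mice was 1.15 (standard error 0.32, adjusted p = 0.0394, edgeR). This passed the threshold, in a fit that called 1287 of 20256 genes, beside 350 without the covariate. In that fit the interaction was -1.33 and the change in knockout mice -0.18. The part of these measures in the *Il10* level was not tested beyond this fit and those given above.

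**Figure D3:**
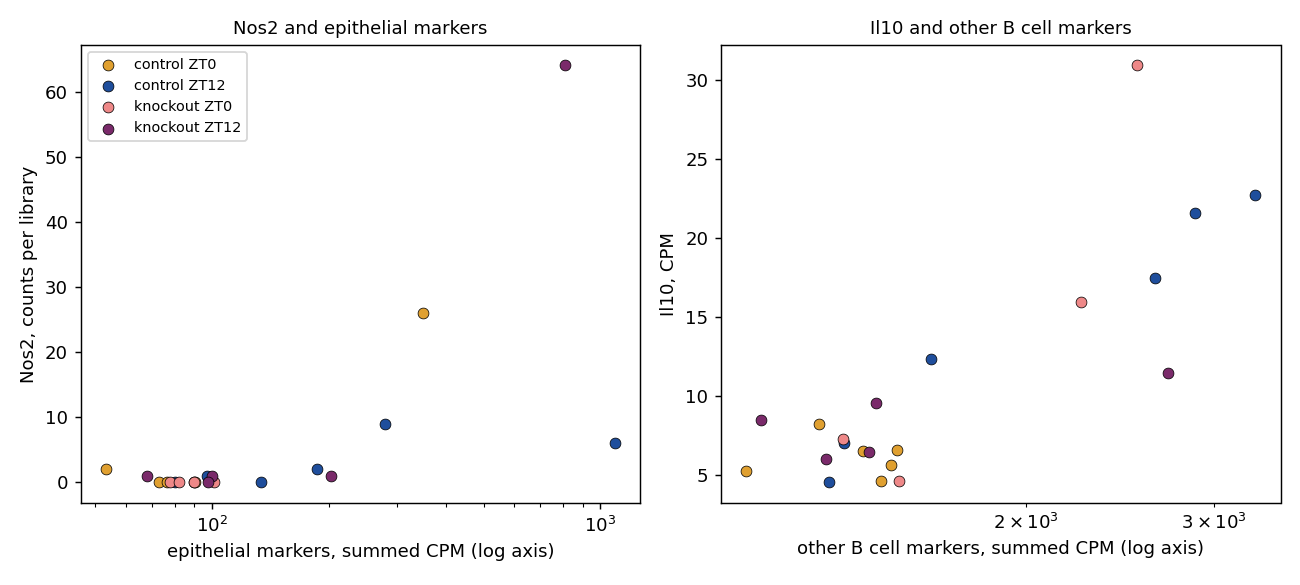
Left, *Nos2* counts per library (y axis) against the summed CPM of 22 epithelial markers (x axis, log scale). Right, *Il10* in CPM against the summed CPM of 12 markers of other B cells (x axis, log scale). Each point is 1 mouse, and the 4 libraries with the most *Nos2* lie furthest to the right in the left plot.

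Among 27 receptors and signalling chains for these signals, 1 was called in control mice between the times, where 1.73% of all genes tested were called. The gene was *Il10ra*, the ligand-binding chain of the IL-10 receptor. It was 1.06 to 2.92 CPM (median 1.71) in control mice at ZT0 and 1.60 to 6.41 CPM (median 4.41) at ZT12. Of the 6 ZT12 mice, 4 were above all ZT0 mice, and the groups overlapped. On the log2 scale the change was 1.18 (standard error 0.31, adjusted p = 0.0479, edgeR). Knockout levels were 4.40, 1.98, 5.87 and 3.83 CPM in the ZT0 group and 3.33, 4.20, 2.62, 4.12 and 2.11 CPM in the ZT12 group, a change of -0.29 that was not called (-0.06 without knockout ZT0 replicate 3 and -0.53 without replicate 2), and the interaction of -1.47 (standard error 0.47) had an unadjusted p of 0.00394 and was not called either. The call was close to the threshold and was lost, among other settings, with library size only (log2 fold change 0.95, adjusted p = 0.0862, edgeR), with the immunoglobulin share as a covariate (1.01, adjusted p = 0.491, edgeR), without the 4 libraries above 58% (1.12, adjusted p = 0.228, edgeR) and in 15 of the 21 fits that left out 1 library. It was also lost with a replicate block (1.12, adjusted p = 0.0883, edgeR), with the epithelial marker level as a covariate (1.28, adjusted p = 0.0648, edgeR) and with only the groups compared (1.18, adjusted p = 0.0972, edgeR). It held without control ZT0 replicate 6, control ZT12 replicates 1, 5 or 6, or knockout ZT0 replicates 2 or 3, and adjusted p ranged from 0.0254 to 0.145 (edgeR) over the 21. *Il10* and *Il10ra* had a correlation of 0.68 over the 21 libraries (0.56 from group means). *Il10rb*, the shared second chain of the receptor, stood at 42.4 CPM and 40.6 CPM in control mice and had a log2 fold change of -0.06 (standard error 0.09).

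**Figure D4:**
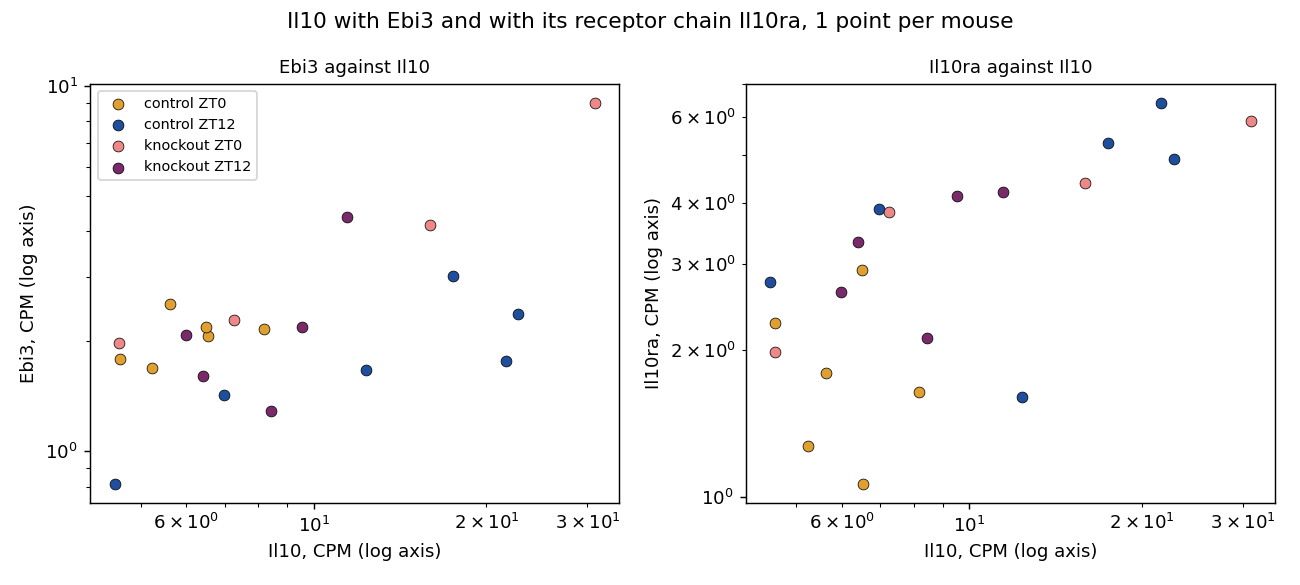
*Ebi3* (left) and *Il10ra* (right) in CPM against *Il10* in CPM, all on log axes, with 1 point per mouse coloured by group. The knockout ZT0 mouse at 30.95 CPM of *Il10* has the most *Ebi3* (9 CPM) and 5.87 CPM of *Il10ra*.

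The other genes around the members were examined by lists. Of 27 receptors and signalling chains, 1 was called higher (*Il10ra*) and 0 lower in control mice between the times, where 1.73% of all genes tested were called. The median was -0.06, and 0 were called in the other comparisons. The next smallest p was that of *Tnfrsf1a*, TNF receptor 1, at 3.61 CPM at ZT0 and 6.18 CPM at ZT12 (0.77, standard error 0.23, adjusted p = 0.0862, edgeR). The TGF-beta receptors were well represented, with *Tgfbr1* at 155 CPM in control mice at ZT0 and 124 CPM at ZT12 (log2 fold change -0.32, standard error 0.13, adjusted p = 0.18, edgeR). Of 11 tested genes of the TGF-beta family and its activation, 0 were called, and the smallest p in control mice was that of *Furin*, a protease that cleaves the TGF-beta precursor (-0.44, standard error 0.18, adjusted p = 0.208, edgeR), followed by *Thbs1*, thrombospondin 1, which activates latent TGF-beta (1.11, standard error 0.47, adjusted p = 0.22, edgeR).

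Of 11 genes of TNF processing and mRNA control, 0 were called. *Zfp36*, tristetraprolin, which destabilises *Tnf* mRNA, was 295 CPM at ZT0 and 385 CPM at ZT12 in control mice (log2 fold change 0.38, standard error 0.12, adjusted p = 0.0937, edgeR), and *Adam17*, the protease that releases TNF from the membrane, was 25.6 and 23.1 CPM. Of 15 genes of arginine and nitric oxide metabolism, 0 were called, and *Nos1*, neuronal nitric oxide synthase, was 0.384 CPM at ZT0 and 0.845 CPM at ZT12 (1.12, standard error 0.50, adjusted p = 0.231, edgeR). Of 26 tested genes among 32 other cytokines, 0 were called. The one with the smallest p in control mice was *Il33* (63 counts in all, adjusted p = 0.119, edgeR). Of 19 genes tied to regulatory plasma cells 0 were called in any comparison, and the smallest p in control mice was that of *Lag3*, an inhibitory receptor of such cells, at 5.59 CPM at ZT0 and 9.92 CPM at ZT12 (0.83, standard error 0.23, adjusted p = 0.0682, edgeR). *Cd274*, which encodes PD-L1, was abundant and even, at 424 and 435 CPM.

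Among the marker lists of other cells, 2 genes were called in control mice, where 1.73% of all genes tested were called. Of 16 tested myeloid markers, 1 was called, *Mrc1*, the macrophage mannose receptor (1.28, standard error 0.28, adjusted p = 0.0252, edgeR). Of 9 tested stromal and endothelial markers, 1 was called, *Pecam1*, an adhesion molecule of endothelium (-0.51, standard error 0.14, adjusted p = 0.0494, edgeR). The T cell list was led by *Cd28* (29.1 CPM), a gene that plasma cells also express, while *Cd3e*, *Cd3d* and *Cd3g* had 147, 75 and 132 counts over all libraries. In these mice 10 of 20 tested epithelial markers had higher levels at ZT12 at an unadjusted p under 0.05, beside 18.1% of all genes under 0.05 in either direction, with 0 called and a median log2 fold change of 2.27. Of 11 plasma cell markers, 18 T cell and innate lymphoid markers, 12 markers of other B cells and 4 tested mast cell and eosinophil markers, 0 were called in any comparison.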

How the data were processed

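Poly-A RNA of sorted IgA+ PCs from 21 mice was sequenced, 12 control and 9 knockout. The authors deposited 1 table with the gene counts of every library, not normalized. The aligner, the counter and the use of strand are not given in the sources used here, so overlapping and antisense genes are uncertain. Gene lengths and coordinates are those of the deposited table, whose gene starts match RefSeq on GRCm38.p6. The submitters' processing notes name DESeq and DESeq2.

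Genes below 10 counts over all libraries were dropped, TMM factors were computed and the means of the 4 groups were fitted with edgeR 4.0.16 (robust quasi-likelihood, R 4.3.3), with Benjamini-Hochberg adjustment over all 20256 genes and a threshold of 0.05. Correlations used log2 CPM with a prior count of 2, or log2 of CPM + 0.1 against summed markers. Standard errors of edgeR fits were derived as the absolute log2 fold change divided by the square root of the F statistic, which can be unreliable near 0. Exact permutation tests were two-sided over all splits. Alternatives were DESeq2 1.42.0, other normalizations, filters, covariates and blocks, and each library left out. Marker levels used as covariates were the mean log2 CPM over the tested genes of a list, not the summed CPM. Chosen after seeing the data were the run of table columns as a block and leaving out the 4 libraries above 58% immunoglobulin or the 4 above 250 CPM of summed epithelial markers. The members, lists and tests were chosen with earlier results of these data known. Genes named were the members, the list genes called, or otherwise some of the 3 with the smallest p in control mice, the IL-12 partner chains, the most abundant markers and those near 0, and the 3 genes most correlated with each member of at least 1 CPM. *Il10rb*, *Tnfrsf1a*, *Tgfbr1*, *Adam17*, *Cd274*, *Ighm*, *Ms4a1*, *Pax5* and the *Cd3* genes were named after their values were seen. The result of 1 list gene is not reported here. The scripts were tested on simulated counts. At library sizes of 12487704 to 22375819 after TMM scaling, 3 counts correspond to 0.134 to 0.24 CPM.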

Additional observations from a re-analysis of the deposited data

Results flagged for a closer look

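Each member was examined in each group for a mouse far from the others, relative to the range of its group. Of 23 groups of values with any spread, 2 held such a mouse, and about 1 in 20 is given by chance. Both were *Nos2*: control ZT0 replicate 6, at 1.35 CPM among 6 mice of which the next highest had 2 counts, and knockout ZT12 replicate 5, at 3.75 CPM among 5 mice of which the others had at most 1 count. Both libraries are among the 4 with the highest summed epithelial markers. The part of this in the *Nos2* level was not tested beyond the fits with the epithelial marker level as a covariate.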

How the results depend on the processing

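Over 37 fits, 1063 of 1100 values of the members' 30 log2 fold changes kept their direction and side of the threshold, 35 changed sign in 12 of the results and 2 passed the threshold. Both were *Il10* in control mice, so that 1 member was called with DESeq2 (1.25, adjusted p = 0.0392) and 1 with the myeloid marker level as a covariate (1.15, adjusted p = 0.0394, edgeR), while adjusted p ran up to 0.826 over its 16 alternatives. Those 2 settings called 1073 and 1287 genes in all, beside 350 in the main fit. The cause of each change of sign was not tested. Some values could not change: the setting with a threshold of 0.01 reused the main fit. The interaction with only the groups compared was also the main fit, as it uses all groups.

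With high-immunoglobulin libraries left out, *Il12a* was 0.51 between the times in knockout mice, 0.062 in the interaction and -0.36 between genotypes at ZT0, and with the myeloid covariate it was 0.0314 in knockout mice. *Nos2* in control mice was 0.92 with a replicate block, 1.90 with the immunoglobulin share as a covariate and 0.0945 with column runs. The *Tgfb1* interaction was 0.17 with library size only, 0.0084 with a replicate block and 0.0053 with *Xist* as a covariate, and its genotype difference at ZT12 was 0.0743 with library size only. The *Tnf* interaction was 0.0798 with library size only, and its genotype difference at ZT12 was -0.0211 with *Xist*, -0.10 with column runs and -0.0919 with high-epithelial libraries left out. *Nos2* gave no value with those libraries left out or under edgeR's own expression filter.

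With each library left out in turn, *Ebi3* between genotypes at ZT12 ranged from -0.0422 to 0.52. *Il12a* ranged from -0.37 to 0.63 between genotypes at ZT0 and from -0.48 to 0.52 in knockout mice. *Nos2* ranged from -0.99 to 2.70 in control mice and from -1.92 to 2.60 between genotypes at ZT12. *Tgfb1* ranged from -0.0537 to 0.0607 in the interaction, from -0.0893 to 0.0008 between genotypes at ZT0 and from -0.0893 to 0.0201 at ZT12. *Tnf* ranged from -0.63 to 0.13 in the interaction, from -0.0045 to 0.76 between genotypes at ZT0 and from -0.0283 to 0.35 at ZT12.

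The labels link same-numbered samples by nothing but the number. Of 28 same-numbered pairs, 8 had correlated deviations above 0.1 (range -0.282 to 0.558), with the highest for replicate 5 of control and knockout mice at ZT12. Pairs of different numbers were not compared, so whether these samples shared a litter or handling was not tested. The replicate block moved the calls over all genes in control mice from 350 to 183 and called 0 members. Those calls were 14 at a threshold of 0.01, 38 with control mice fitted alone, 0, 115 and 1287 with the immunoglobulin, epithelial or myeloid covariate, 545 with column runs and 1073 with DESeq2. Low counts limit *Tnf*, *Il12a* and *Nos2*.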
